A study of Homo sapiens with 6 samples.

Results

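PARP1 and its paralogues were followed in HGC-27 cells, an established line of undifferentiated human gastric carcinoma, after the knockdown of ACAT2. ACAT2 is the cytosolic acetyl-CoA acetyltransferase, an enzyme at the entry of cholesterol synthesis. The 10 genes were selected by name from the 58735 genes of the deposited table, after PARP1 had been seen to be lower in the knockdown cells: PARP1, PARP2, PARP3, PARP4, PARP9, PARP10, PARP14, the tankyrases TNKS and TNKS2, and PARG. The FPKM values of PARP1 in this contrast therefore chose the set, and they are described here without a test. Both groups were HGC-27 cells labelled WT and exposed to a puromycin-resistance vector for 24 h, followed by puromycin for 7 days. The shACAT2 group (3 libraries) carried the vector with a short hairpin RNA against ACAT2, and the shNC group (3 libraries) was the negative control. For shNC the methods of the study name an empty vector, while its results write of a control hairpin RNA, and no control hairpin sequence is given. The labels do not say which hairpin sequence the shACAT2 cells carried, and the cells were 1 line, so the values describe that line only. P-values measure the spread between these libraries, and the labels do not say whether those of a group are separate cultures.

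Poly(ADP-ribose) polymerases split NAD+ and join its ADP-ribose part to proteins. PARP1 binds DNA breaks, builds long chains there and so draws repair factors to the site, PARP2 and PARP3 do related work, the tankyrases mark other proteins such as axins, and most other family members add single ADP-ribose units. PARG cuts the chains down again, and drugs that block PARP1 are used against tumours that cannot repair breaks by homologous recombination.

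Expression was given as FPKM, in which fragments are divided by gene length and library size. The libraries held 14086416 to 16067486 fragments assigned to genes. The groups were compared by limma on the log2(FPKM + 1) scale for 13832 genes, those whose shNC or shACAT2 mean reached 1 FPKM, and the call was a Benjamini-Hochberg adjusted p below 0.05 over all of them. Of the 10 genes, 9 passed this filter, and PARP9 did not. Among all genes tested, 5.10% were called, 3.30% higher and 1.81% lower in shACAT2 cells, and 23.5% (3253 genes) had an unadjusted p below 0.05. On this scale the change of a weakly expressed gene comes out too small. ACAT2 itself had 14.2, 11.7 and 12.7 FPKM in the control libraries 1, 2 and 3, and 6.19, 5.46 and 6.05 FPKM in the knockdown libraries. SETD7, a lysine methyltransferase that has PARP1 among its known substrates and that the study followed downstream of ACAT2, fell from 8.17 ± 0.418 to 3.09 ± 0.493 FPKM (SD, n = 3 each, log2 fold change −1.17, limma adjusted p = 0.0052). The study took SETD7 from the genes that differed in these same data, so this p-value is a description.

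The label of stomach origin was set beside marker genes. None of 6 gastric markers reached 1 FPKM in a library, and TFF1, GKN1 and PGC were listed at 0 throughout. Of 5 epithelial markers, 1 reached 1 FPKM, CDH1 in shACAT2-3, and their sum was 0.505 to 0.830 FPKM in shNC and 1.44 to 2.22 FPKM in shACAT2 libraries. Of 4 mesenchymal markers, VIM had 246 to 292 FPKM in shNC and 340 to 461 FPKM in shACAT2 libraries, ZEB1 had 3.66 to 6.51 and FN1 1.81 to 2.42 FPKM over all libraries, and CDH2 was near 0, at most 0.0808 FPKM. The sum of 4 fibroblast markers was 102 to 105 FPKM in shNC and 176 to 196 FPKM in shACAT2 libraries, carried by COL1A1 and LUM, while PDGFRA was 2.26 to 2.62 FPKM in shNC and 1.35 to 1.70 FPKM in shACAT2 libraries, and the part of these differences in the results below was not tested. None of 3 endothelial markers reached 1 FPKM, with 0.257 FPKM at most. In 1 library, shACAT2-3, 36466 genes had a value above 0, against 25337 to 27196 genes in the others. The most alike libraries were shNC-2 and shNC-3, with a chi-square per gene of 1.73 while other pairs of replicates had 12.1 to 46.0.

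The sequence upstream of PARP1 is shown because PARP1 was the family gene with the large difference. Those around a motif of PARP9, PARP14 and PARP12 are an example of a motif held by few promoters. A rarer one, the cyclic AMP response element of PARP2, is not shown. All were taken from RefSeq promoter windows of GRCh38.p14. Windows were read for 7 of the 10 genes, and not for PARP4, PARP10 or TNKS. The PARP1 window spans the 250 bases before the RefSeq start site, chr1:226408094-226408343 on the minus strand, with the GC box (GGGCGG, here on the opposite strand) in capitals. Of this window 70.4% was G or C, with 26 CpG pairs, against medians of 58% and 11 over all 35116 promoters.
PARP1 upstream window: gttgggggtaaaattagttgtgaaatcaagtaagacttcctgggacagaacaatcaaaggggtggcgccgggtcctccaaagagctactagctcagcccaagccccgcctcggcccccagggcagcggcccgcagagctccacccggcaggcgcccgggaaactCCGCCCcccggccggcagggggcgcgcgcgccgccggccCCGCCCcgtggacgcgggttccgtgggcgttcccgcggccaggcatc

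Both strands of each window were searched for 7 motifs, and GC boxes, found in 42.6% of all promoters, numbered 2 in the PARP1 window. This window held no match to the CCAAT box (CCAAT, 32.01% of all promoters), the TATA box (TATAAA, 10.7%), the ETS site (CCGGAAG, 8.52%), the cyclic AMP response element (TGACGTCA, 1.65%) or the E2F site (TTTCCCGC, 1.39%). The PARP2 window held 1 GC box and 1 cyclic AMP response element, the PARP3 window 1 ETS site, the PARG window 1 CCAAT box, and the TNKS2 window none of the 7. A motif of interferon response elements, 2 GAAA blocks with any 2 bases between them (GAAANNGAAA), was in 3.02% of all promoters. In the family it was found before a RefSeq start site of PARP9, at chr3:122564322-122564351 on the minus strand, of PARP14, at chr3:122680800-122680829 on the plus strand, and of PARP12, at chr7:140062952-140062971 on the minus strand, and is in capitals below.
PARP9 upstream motif: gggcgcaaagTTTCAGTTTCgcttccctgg
PARP14 upstream motif: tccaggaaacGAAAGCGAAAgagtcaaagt
PARP12 upstream motif: ccggggccgcTTTCGGTTTC
The motif ended 31 bases before the RefSeq start site in PARP9 and 19 bases before it in PARP14. By the gene coordinates used here, all of these stretches lie inside their genes, and their overlap with exons was not checked. A match to these letters says only that they are present.

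PARP1 (ENSG00000143799) occupies 226360691 to 226408079 of chromosome 1 (GRCh38, minus strand), with 7169 exon bases. It had 87.9, 79.3 and 78.1 FPKM in the shNC libraries, in the order of replicates 1, 2 and 3, which holds for all values given, and 38.0, 34.2 and 33.8 FPKM in the shACAT2 libraries. Every knockdown library lay far below every control library, and the 3 values of a group lay close together. From shNC to shACAT2 the mean went from 81.8 ± 5.35 to 35.3 ± 2.31 FPKM (SD, n = 3 each), so that 43.2% of the control level was left. In RNA from whole cultures, fewer cells that express a gene and less of its RNA per cell cannot be told apart. On the log2 scale the difference was −1.19 (standard error 0.11, 95% interval −1.44 to −0.94), from 3632 to 9654 fragments per library. It ranged from −1.24 to −1.14 when single libraries were dropped, and from −1.26 to −1.14 over all alternatives.

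Of the 13832 genes tested, 32 had a lower log2 fold change than PARP1. This rank holds on the scale of FPKM + 1, where the change of a weakly expressed gene comes out too small. SETD7 kept 37.8% and the weakly expressed LRRC3B 23.4% of the control mean, against 43.2% for PARP1, yet neither is among the 32. In shNC cells 386 genes tested had a higher mean FPKM than PARP1, and 0 of them had a lower log2 fold change. The pseudogene PARP1P1 was listed at 0 in all 6 libraries, and 1.26% of the stretches of 50 bases in PARP1 transcripts occurred in another gene.

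**Figure D1:**
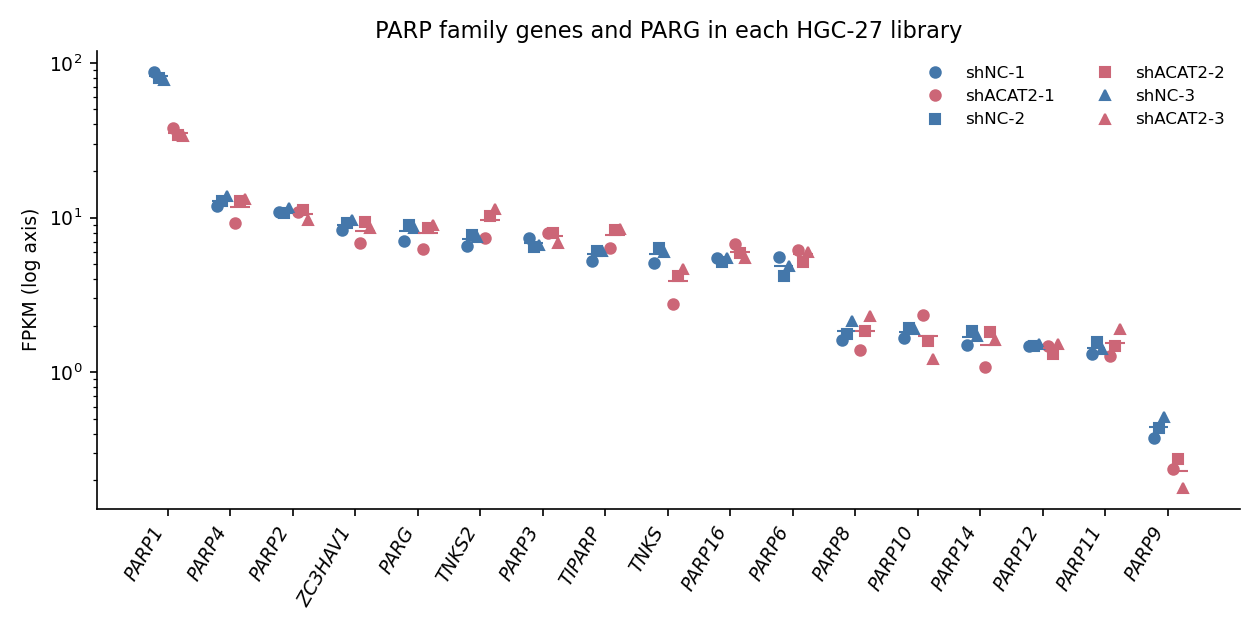
FPKM (log axis) of 16 PARP family genes and PARG in each library, with shNC in blue, shACAT2 in red, symbols for replicates 1 to 3 and bars at group means; PARP15 is not drawn because it was listed at 0 in 5 libraries. PARP1 stands above all others in both groups, at 78.1 to 87.9 FPKM in shNC and 33.8 to 38.0 FPKM in shACAT2 libraries.

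PARP2, the closest relative of PARP1 in break repair, had 10.9, 10.8 and 11.6 FPKM in shNC and 10.8, 11.2 and 9.58 FPKM in shACAT2 libraries (chromosome 14, 20343582 to 20357905, plus strand). The groups overlapped, and the mean in shACAT2 cells was 95.1% of that in shNC cells. Its log2 fold change was −0.07 (95% interval −0.30 to 0.16, limma adjusted p = 0.717). The interval spans small differences in both directions.

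PARP3, which acts at double-strand breaks, had 7.41, 6.49 and 6.70 FPKM in shNC and 7.99, 7.95 and 6.87 FPKM in shACAT2 libraries (chromosome 3, 51942345 to 51948867, plus strand). The groups overlapped, with a log2 fold change of 0.13 (95% interval −0.10 to 0.36, limma adjusted p = 0.482). The 3 enzymes activated by DNA breaks thus differed in their values: PARP1 was lower in every knockdown library, while PARP2 and PARP3 passed no test.

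PARG, the glycohydrolase that degrades poly(ADP-ribose), had 7.07, 8.97 and 8.61 FPKM in shNC and 6.31, 8.56 and 8.99 FPKM in shACAT2 libraries (chromosome 10, 49818279 to 49970203, minus strand). Values of both groups covered the same range. PARG had a log2 fold change of −0.05 (95% interval −0.41 to 0.31, limma adjusted p = 0.876), and its sign turned without shNC-2 (0.01) or without shACAT2-1 (0.09). The pseudogene PARGP1 shares 22.4% of the stretches of 50 bases in PARG and had 1.23 to 2.65 FPKM, so the PARG level is uncertain where the counting split such fragments.

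The ratio of PARP1 to PARP2 was 7.39 ± 0.669 in shNC and 3.36 ± 0.270 in shACAT2 cells, and that of PARP1 to PARG 10.1 ± 2.01 and 4.59 ± 1.25 (SD, n = 3 each). These ratios contain the values that chose the genes and are descriptions.

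The tankyrases, which modify axins and telomere proteins, had opposite signs. TNKS (chromosome 8, 9555914 to 9782346, plus strand) had 5.10, 6.32 and 6.02 FPKM in shNC and 2.75, 4.21 and 4.62 FPKM in shACAT2 libraries. All 3 knockdown values lay below all 3 control values, as they did for 14.5% of all genes tested. The mean in shACAT2 cells was 66.4% of that in shNC cells, with a log2 fold change of −0.50 (95% interval −0.90 to −0.11, unadjusted p = 0.0195, limma adjusted p = 0.132). TNKS passed the threshold with the replicate number as a block (limma adjusted p = 0.0415). With this block 666 of all genes tested were called lower, against 250 without it. Without shACAT2-1, which held the lowest value, the log2 fold change was −0.33.

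TNKS2 (chromosome 10, 91798312 to 91865276, plus strand) had 6.56, 7.69 and 7.50 FPKM in shNC and 7.35, 10.2 and 11.4 FPKM in shACAT2 libraries. Replicates 2 and 3 of the knockdown lay above all controls, and shACAT2-1 lay within them. The log2 fold change was 0.35 (95% interval −0.03 to 0.72, limma adjusted p = 0.240), and without shACAT2-1 it was 0.51 (limma adjusted p = 0.0430). Without that library 523 of all genes tested were called higher, against 456 with it.

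Within each library, the ratio of TNKS to TNKS2 was 0.777, 0.821 and 0.803 in the controls. It was 0.375, 0.414 and 0.406 in the knockdown, so that the spread within a group was small beside the distance between the groups (0.801 ± 0.0220 and 0.398 ± 0.0207, SD, n = 3 each). The ratio was formed after the values of both genes had been seen and was not tested.

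PARP4, a component of the vault particle, had 11.8, 12.8 and 13.7 FPKM in shNC and 9.27, 12.8 and 13.1 FPKM in shACAT2 libraries (chromosome 13, 24420926 to 24512810, minus strand). It was second in level to PARP1 and overlapped between the groups, with a log2 fold change of −0.13 (95% interval −0.47 to 0.22, limma adjusted p = 0.650). The sign turned without shACAT2-1, to 0.02. Other genes hold 9.85% of its stretches of 50 bases, most of them the pseudogene PARP4P2, which had at most 2 fragments in a library.

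PARP10, a mono-ADP-ribosyltransferase, had 1.67, 1.92 and 1.89 FPKM in shNC and 2.34, 1.60 and 1.23 FPKM in shACAT2 libraries (chromosome 8, 143977153 to 144012772, minus strand). The 3 knockdown values spread on both sides of the controls (log2 fold change −0.08, 95% interval −0.46 to 0.31, limma adjusted p = 0.824), and without shACAT2-3 the sign turned to 0.06. GRINA, at 33.8 to 57.8 FPKM, shares 324 exon bases with PARP10 on the opposite strand. The strand setting of the counting is not given in the sources used here, so part of the PARP10 level is uncertain.

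PARP14, a macrodomain protein of interferon and STAT6 signalling, had 1.51, 1.83 and 1.71 FPKM in shNC and 1.08, 1.82 and 1.62 FPKM in shACAT2 libraries (chromosome 3, 122680618 to 122730840, plus strand). The groups overlapped, with a log2 fold change of −0.11 (95% interval −0.46 to 0.24, limma adjusted p = 0.708), which became 0.02 without shACAT2-1.

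PARP9, the partner of the ubiquitin ligase DTX3L, had 0.373, 0.435 and 0.513 FPKM in shNC and 0.236, 0.276 and 0.179 FPKM in shACAT2 libraries (chromosome 3, 122527924 to 122564577, minus strand). All knockdown values lay below all control values, but they rest on 24 to 79 fragments per library. PARP9 lay under the filter. With no filter, over 41161 genes, its log2 fold change was −0.23 (95% interval −0.49 to 0.04, limma adjusted p = 0.571). It shares 217 exon bases with DTX3L on the opposite strand.

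**Figure D2:**
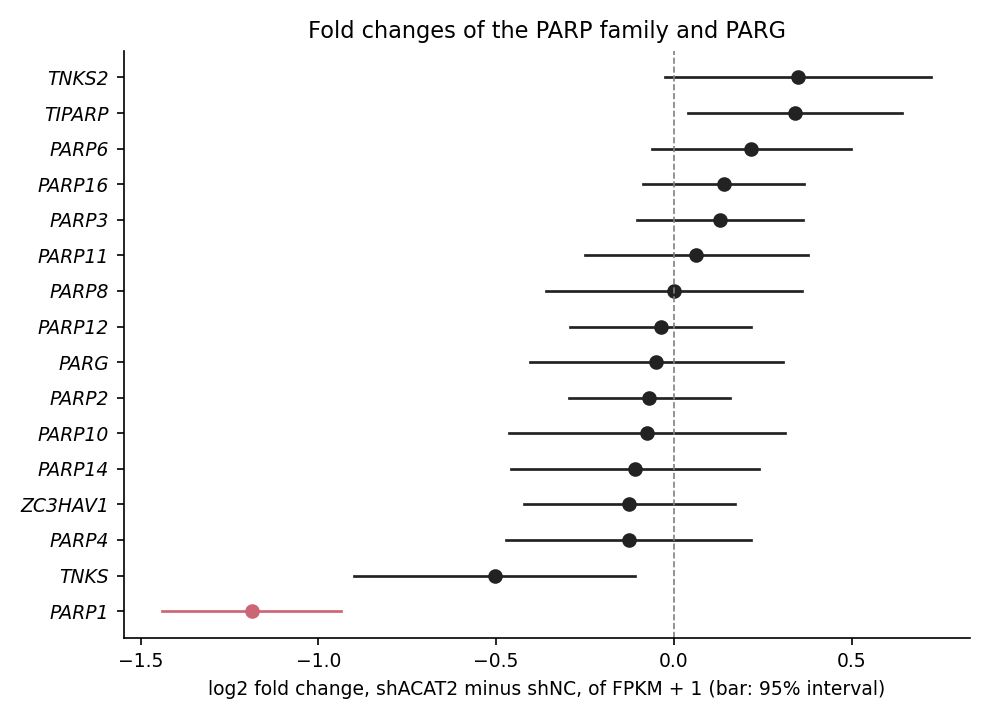
Log2 fold change (shACAT2 minus shNC, of FPKM + 1) of 15 PARP family genes and PARG that passed the filter, with 95% intervals from limma. PARP1 (red, −1.19) was chosen for its low values in this contrast, so its place is no finding; of the other genes, the intervals of TNKS (−0.90 to −0.11) and TIPARP (0.04 to 0.64) leave out 0 and the rest include it.

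Of the 8 other genes of the set that were tested, 0 were called by limma, 1 (TNKS) had an unadjusted p below 0.05, against 23.5% of all genes tested, and 0 were called by limma-voom on the recovered fragments. Their median log2 fold change was −0.07, against 0.02 over all genes tested. The groups of 1 of the 8 lay apart, below the controls, as in 14.5% of all genes tested.

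The remaining PARP family genes were read in the same way. TIPARP, a mono-ADP-ribosyltransferase induced by the aryl hydrocarbon receptor, had 5.24, 6.12 and 6.12 FPKM in shNC and 6.33, 8.32 and 8.41 FPKM in shACAT2 libraries. Its groups lay apart, with all knockdown values higher, as in 16.2% of all genes tested. The log2 fold change was 0.34 (95% interval 0.04 to 0.64, limma adjusted p = 0.168). TIPARP passed with the replicate block (limma adjusted p = 0.0461) and without shACAT2-1 (limma adjusted p = 0.0471). These fits called 1061 and 523 of all genes tested higher, against 456 in the main fit.

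PARP16, a transmembrane enzyme of the endoplasmic reticulum, also lay apart and higher, with a log2 fold change of 0.14 (limma adjusted p = 0.428). ZC3HAV1, the antiviral zinc-finger protein without catalytic activity, had −0.12 (limma adjusted p = 0.599). PARP6 had 0.22 (limma adjusted p = 0.315), and PARP8, PARP11 and PARP12 lay between −0.04 and 0.06. PARP15 was listed at 0 in 5 libraries, and the 2 fragments it had in shACAT2-3 come from the library with the most genes above 0. In all, 15 of the 17 family genes were tested, and PARP1 aside, 0 of them were called by limma. TNKS and TIPARP had an unadjusted limma p below 0.05, beside 23.5% of all genes tested.

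In shNC cells the order by FPKM, which is per length, was PARP1, PARP4, PARP2, ZC3HAV1, TNKS2, PARP3, TIPARP, TNKS, PARP16, PARP6, PARP8, PARP10, PARP14, PARP12, PARP11, PARP9 and PARP15. The ranges of neighbours overlapped from TNKS2 to PARP3, from TIPARP to PARP6, and from PARP8 to PARP11, and were separate elsewhere. In shACAT2 cells PARP1 was still first, with a separate range, while the genes from PARP4 to PARP3 overlapped one after another. TNKS stood at place 8 in shNC and at place 10 in shACAT2 cells.

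The make-up of the family messages differed accordingly. Summed over the 15 family genes tested, the FPKM was 159 ± 2.64 in shNC and 114 ± 4.14 in shACAT2 cells (SD, n = 3 each). Without PARP1 the sums were 77.1 ± 3.21 and 79.2 ± 6.42 FPKM, a distance smaller than the spread in shACAT2 cells. PARP1 was 54.3, 50.6 and 49.3% of the family FPKM in the shNC libraries and 34.6, 29.2 and 29.01% in the shACAT2 libraries. On the log2 scale PARP1 lay 3.84 ± 0.163 above the mean of the other 9 genes of the set in shNC and 2.72 ± 0.196 above it in shACAT2 cells.

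**Figure D3:**
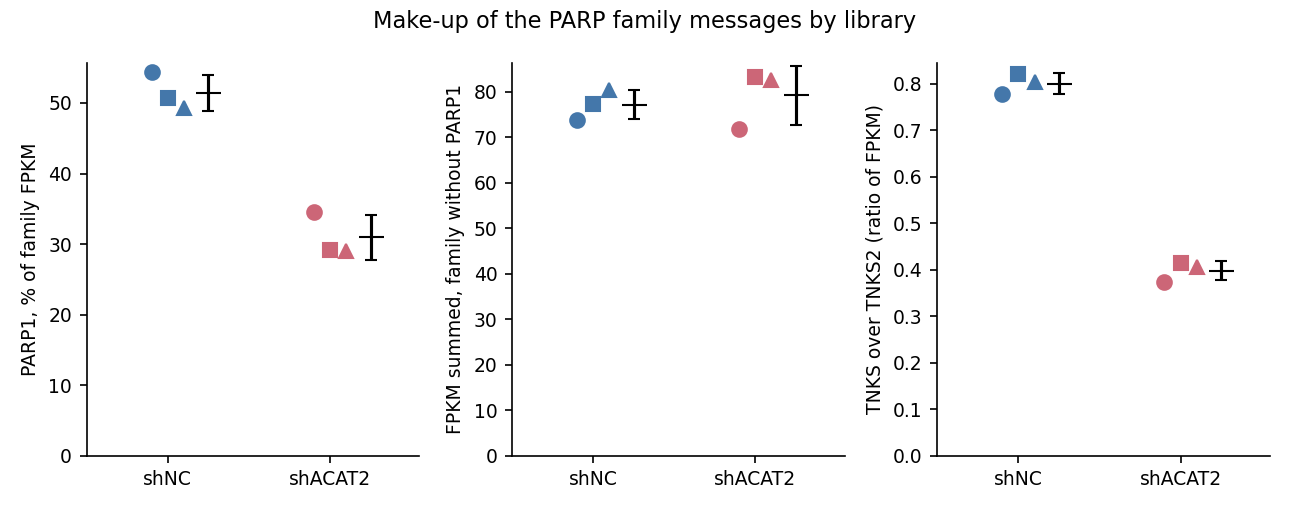
Per library, PARP1 as percent of the summed FPKM of the tested PARP family (left), the family FPKM without PARP1 (middle) and the ratio of TNKS to TNKS2 (right), with circles, squares and triangles for replicates 1 to 3 and bars for mean ± SD (n = 3). The share of PARP1 went from 51.4% to 30.9% while the sum without PARP1 overlapped between the groups.

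Around the family, 7 lists of 105 ADP-ribose pathway genes were read, of which 83 were tested. 1 was called higher and 1 lower, beside 3.30% and 1.81% of all genes tested. The groups of 13 genes lay apart above and of 13 below the controls, beside 16.2% and 14.5% of all genes tested. The median log2 fold change was −0.009. Enzymes that remove ADP-ribose had no call among 8 tested, by limma or by limma-voom. An unadjusted limma p below 0.05 was found for 1 of these enzymes, beside 23.5% of all genes. Among the enzymes tested was ADPRHL2, also called ARH3, which removes ADP-ribose from serine. It went from 22.3 ± 3.51 to 23.9 ± 7.33 FPKM (SD, n = 3 each, log2 fold change 0.06, limma adjusted p = 0.894).

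Genes of single-strand break and base excision repair, in which PARP1 binds the breaks, had no call among 24 tested, by limma or by limma-voom. An unadjusted limma p below 0.05 was found for 2 of these genes, beside 23.5% of all genes. The median log2 fold change of the list was −0.05. HPF1, the cofactor that directs PARP1 to serine, went from 18.6 ± 0.452 to 20.5 ± 1.22 FPKM (SD, n = 3 each, log2 fold change 0.13, limma adjusted p = 0.462). XRCC1, the scaffold that binds poly(ADP-ribose), had −0.003 (limma adjusted p = 0.996) and the polymerase POLB 0.16 (limma adjusted p = 0.479). The ligase LIG3 had −0.28 and lay apart below the controls (limma adjusted p = 0.122). LIG1, named after its values were seen, passed with the replicate block alone (log2 fold change −0.41, limma adjusted p = 0.160, or 0.0443 with the block). The block called 666 of all genes tested lower, against 250 without it.

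Among 10 end-joining genes tested 1 was called lower, beside 1.81% of all genes tested. This was XRCC6, which encodes the Ku70 subunit of the break-binding Ku dimer. It had 236, 202 and 201 FPKM in the control and 118, 93.9 and 103 FPKM in the knockdown libraries. All knockdown libraries lay far below the controls, with 49.3% of the control mean left. This was a log2 fold change of −1.02 with a standard error of 0.13 (limma adjusted p = 0.0110). The limma adjusted p was 0.0562, 0.0696 and 0.0774 when control library 1, 2 or 3 was dropped, 0.0584 without shACAT2-2 and 0.0724 after averaging shNC-2 and shNC-3, while the log2 fold change stayed between −1.10 and −0.94. The pseudogene XRCC6P2 shares 12.3% of its stretches of 50 bases and had at most 2 fragments in a library.

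Partners of XRCC6, named after their values were seen, differed from it in level. XRCC5, the Ku80 subunit, had 94.4, 90.1 and 87.7 FPKM in shNC and 108, 104 and 114 FPKM in shACAT2 libraries. It lay above the controls in every knockdown library (log2 fold change 0.26, limma adjusted p = 0.181). PRKDC, the kinase that Ku recruits, went from 86.4 ± 11.5 to 59.9 ± 18.2 FPKM (SD, n = 3 each, log2 fold change −0.56, limma adjusted p = 0.225).

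Genes that supply or use NAD+, the substrate of the PARP enzymes, had no call among 14 tested, by limma or by limma-voom. An unadjusted limma p below 0.05 was found for 2 of these genes, beside 23.5% of all genes. The median log2 fold change of the list was 0.06. NAMPT, the enzyme of NAD+ salvage, had −0.06 (limma adjusted p = 0.833), and NMNAT1, which makes NAD+ in the nucleus, had 0.09 (limma adjusted p = 0.713).

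Among 15 tested partners and substrates of the tankyrases 1 was called higher, beside 3.30% of all genes tested. This was AMOTL2, an angiomotin that holds YAP1 at cell junctions. It had 6.25, 6.01 and 6.09 FPKM in shNC and 18.2, 16.0 and 15.1 FPKM in shACAT2 libraries, so that the lowest knockdown value was well above the highest control. This was a log2 fold change of 1.29 with a standard error of 0.10 (limma adjusted p = 0.0035, or at most 0.0332 when single libraries were dropped). Its paralogues, named after their values were seen, had the opposite sign: AMOT went from 14.9 ± 0.0422 to 11.2 ± 1.64 FPKM (limma adjusted p = 0.113) and AMOTL1 from 9.16 ± 0.132 to 7.18 ± 0.786 FPKM (limma adjusted p = 0.122, SD, n = 3 each). RNF146, the ubiquitin ligase that reads poly(ADP-ribose) on tankyrase targets, had −0.07 (limma adjusted p = 0.783). The axins AXIN1 and AXIN2 had 0.12 and −0.08 (limma adjusted p = 0.785 and 0.727).

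The interferon partners of PARP9 and PARP14 had no call among 10 tested by limma (3 at an unadjusted p below 0.05, beside 23.5% of all genes), and 9 of the 19 lay under the filter. DTX3L, which pairs with PARP9, had 2.19, 2.34 and 2.09 FPKM in shNC and 1.14, 1.44 and 1.51 FPKM in shACAT2 libraries. The groups lay apart (log2 fold change −0.44, limma adjusted p = 0.0733), and DTX3L was called lower by limma-voom and when genes were required to have 10 fragments in each library. IFITM3, named after its values were seen, had a log2 fold change of 0.52 (limma adjusted p = 0.128) and passed with the replicate block (limma adjusted p = 0.0368). The block called 1061 of all genes tested higher, against 456 without it. Of the vault genes, MVP had 0.27 (limma adjusted p = 0.270) and TEP1 −0.36 (limma adjusted p = 0.143), and limma-voom called TEP1 lower.

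**Figure D4:**
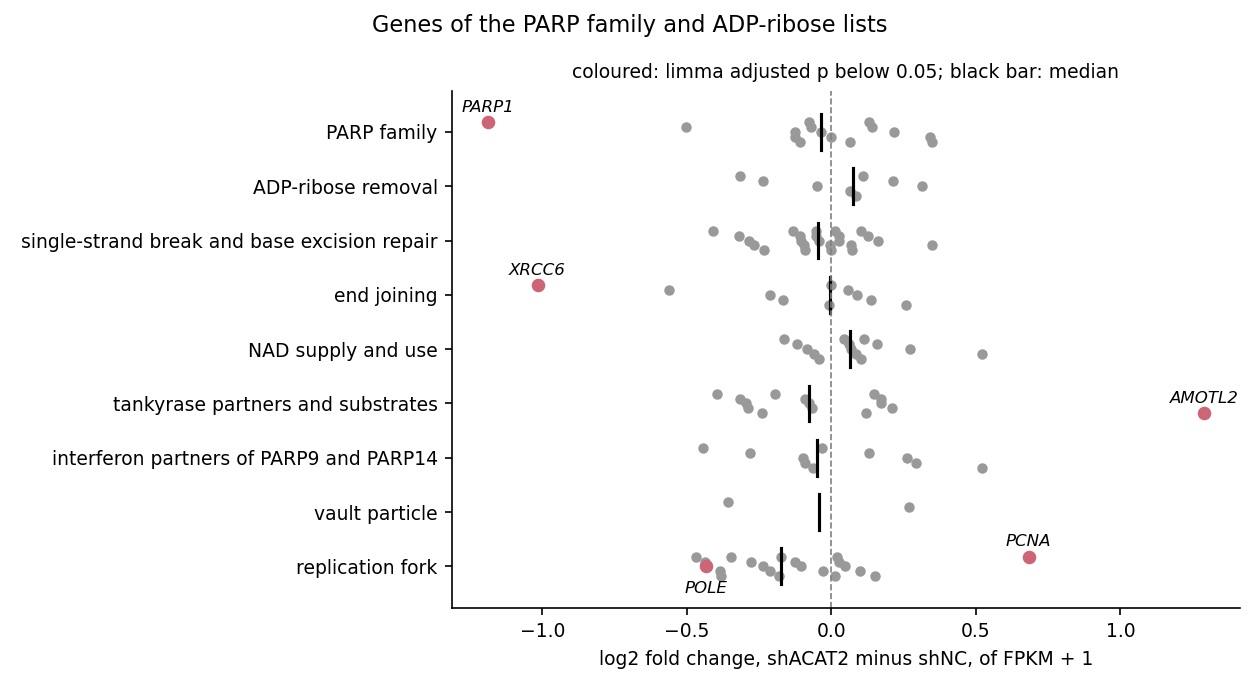
Log2 fold change (shACAT2 minus shNC, of FPKM + 1) of each tested gene of the PARP family and 8 lists, 1 dot per gene, with genes called by limma in red and named and a black bar at each median. PARP1 (−1.19, chosen for this value) and XRCC6 (−1.02) lie far left and AMOTL2 (1.29) far right, while the medians lie between −0.18 and 0.07.

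Replication fork genes were set beside PARP1, since PARP1 also acts at forks. Among 21 tested, PCNA, the sliding clamp, was called higher and POLE, a leading-strand polymerase, lower. Over all genes tested, 3.30% were called higher and 1.81% lower. PCNA rose from 87.0 ± 1.57 to 141 ± 12.3 FPKM (SD, n = 3 each, log2 fold change 0.68, limma adjusted p = 0.0208). POLE fell from 9.82 ± 0.466 to 7.00 ± 0.127 FPKM (SD, n = 3 each, log2 fold change −0.43, limma adjusted p = 0.0348). Both lost the call when any 1 of the controls or shACAT2-2 was dropped, and POLE also without shACAT2-3, with limma adjusted p up to 0.136 for PCNA and 0.163 for POLE. Calls on this list moved with the settings. Lower calls numbered 4 after equal-sum scaling (MCM2, MCM3, MCM7 and POLE), 3 by limma-voom (MCM2, MCM7 and POLE), 3 with the replicate block (MCM2, RFC1 and POLE) and 3 without shACAT2-1 (MCM7, POLD1 and POLE), each with PCNA as the 1 higher call; genes other than PCNA and POLE were named after their values were seen. Over all genes tested, lower calls in these settings numbered 426, 581, 666 and 339, in the same order, against 250 in the main fit. Higher calls over all genes were 522, 584, 1061 and 523, against 456. With no filter, or with shNC-2 and shNC-3 as an average, limma called 0 of the 21 in either direction. An unadjusted limma p below 0.05 was found for 6 and 3 of them, beside 4140 of 41161 and 2128 of 13838 genes.

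The protein-coding genes most like PARP1 over the 6 libraries, by the root mean square difference of log2(FPKM + 1) centred on each gene's mean, were LSM14B (0.0636), CKS1B (0.0743), LRRC3B (0.0995), NUP210 (0.102) and XRCC6 (0.105). Their Pearson r with PARP1, over 6 libraries that share their knockdown contrast and depth, ran from 0.986 to 0.995. LSM14B, an RNA-binding protein of the LSM14 family, went from 23.0 ± 1.21 to 9.47 ± 1.08 FPKM. NUP210, a pore membrane protein, went from 45.0 ± 3.01 to 20.6 ± 0.960 FPKM, and CKS1B, a subunit of cyclin-dependent kinases, from 56.0 ± 5.84 to 24.4 ± 3.36 FPKM (SD, n = 3 each). LRRC3B, a weakly expressed gene, went from 2.65 ± 0.0907 to 0.621 ± 0.0447 FPKM (SD, n = 3 each). This left 23.4% of its control mean, against 43.2% for PARP1. Its likeness to PARP1 thus holds on the scale of FPKM + 1, where such changes come out too small. All 5 genes were picked for this likeness, so their differences are descriptions. Pseudogenes share 8.82% of the stretches of 50 bases in CKS1B.

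The chromosomal surroundings of PARP1 were read as well. Of 19 protein-coding genes with starts within 1 Mb of that of PARP1, 14 were tested and 0 were called by limma (4 at an unadjusted p below 0.05, beside 23.5% of all genes). Their median log2 fold change was 0.03, and 7 were below 0. LIN9, the nearest on one side at 129542 bases, had 0.06 (limma adjusted p = 0.801). On the other side STUM, at 188109 bases, lay under the filter, and ITPKB, at 270999 bases, had 0.18 (limma adjusted p = 0.492). TMEM63A was called lower by limma-voom and after both other scalings (log2 fold change −0.37, limma adjusted p = 0.0560 in the fit used throughout). With the replicate block it was called too (limma adjusted p = 0.0373), together with EPHX1, ACBD3 and SDE2, which were higher. All 4 were named after their values were seen. Over all genes tested the block called 1061 higher and 666 lower, against 456 and 250 without it.

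**Figure D5:**
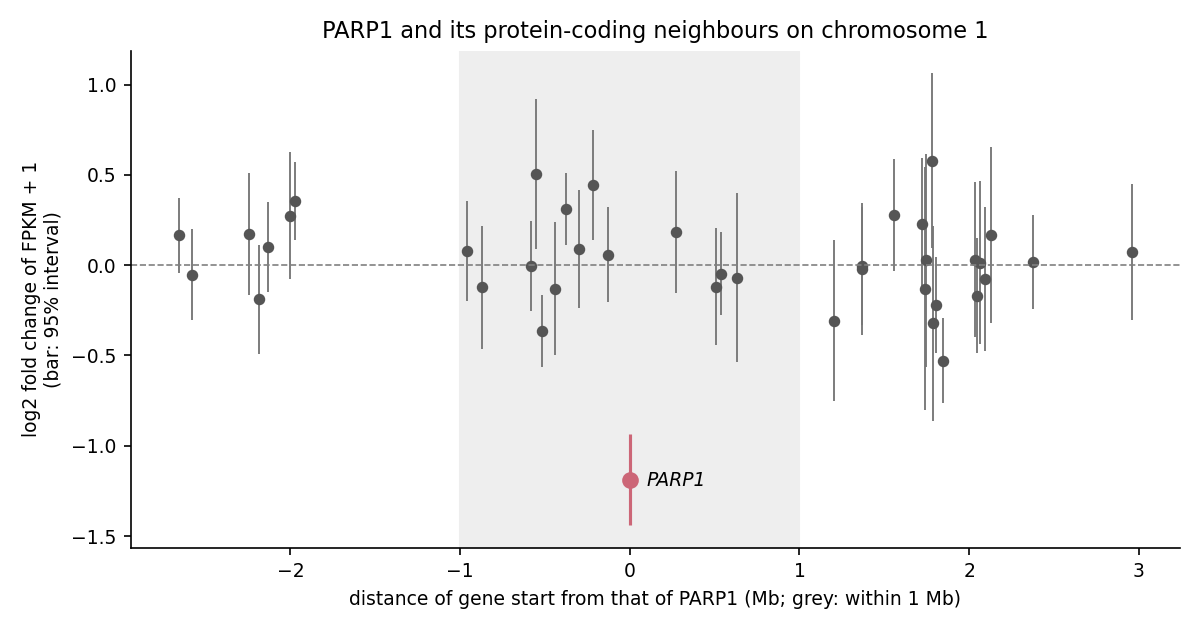
Log2 fold change (shACAT2 minus shNC, of FPKM + 1) with 95% intervals of PARP1 (red) and the 39 tested protein-coding genes within 3 Mb, by the distance of their starts from that of PARP1 in Mb; grey marks 1 Mb on either side. PARP1, at −1.19, was chosen for this value, and 0 neighbours within 1 Mb were called.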

How the data were processed

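RNA of HGC-27 cells was analysed in 3 shNC and 3 shACAT2 libraries, with groups and replicate numbers taken from the sample titles. The authors deposited 1 table of FPKM values for 58735 genes, with coordinates and exon lengths equal to GENCODE release 29. The submitters' processing notes name HISAT2 2.0.5, featureCounts 1.5.0-p3, DESeq2 1.20.0 and hg38, while the strand setting is not given in the sources used here. Values multiplied by gene length gave fragments that were whole, within 0.01, in 100% of cases.

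The 10 genes and all gene lists were chosen with earlier results of these data known. Limma 3.58.1 (R 4.3.3) with an intensity trend was fitted to log2(FPKM + 1) where the mean of either group reached 1 FPKM, and recovery was checked on simulated data. The simulated libraries of a group differed by depth and random count noise alone, so the check does not cover the library differences seen here. Other steps used Python 3.11.15. Named were the set, the PARP family, list genes past the threshold (at most 5 per list and direction), 13 list genes whatever their values, the 5 genes most like PARP1, ACAT2 and SETD7, the nearest neighbours and neighbours called. Others are marked as named after their values were seen. A marker gene and a neighbour of PARP1 are not reported here.

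Deviations from the group means were alike between libraries of equal replicate number (correlations 0.445, 0.126 and 0.171). All lay above 0.1, so a fit with the replicate number as a block was read beside the unblocked fit used throughout. No label gives a shared culture or day, and the crossed numbers 2 and 3 gave 0.198 and 0.141, close to the matched ones. The alternatives were a pseudocount of 0.1, no filter, a minimum of 10 fragments in every library, upper-quartile and equal-sum scaling, limma-voom, the replicate block, each library left out, and shNC-2 and shNC-3 averaged.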

Additional observations from a re-analysis of the deposited data

How the results depend on the processing

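The log2 fold change of PARP1 kept its sign and size in 14 of 14 alternatives, and its distance to the other 9 genes, −1.22 to −1.02, in 10 of 10. No filter, the minimum of 10 fragments and the replicate block cannot move the value of PARP1. The remaining alternatives reread the values that chose PARP1, so both counts are descriptions. When single libraries were dropped, the log2 fold change ran from −0.14 to 0.091 for PARG, positive without shNC-2 (0.011) or shACAT2-1, from −0.21 to 0.021 for PARP4 and from −0.20 to 0.020 for PARP14, positive without shACAT2-1, and from −0.23 to 0.059 for PARP10, positive without shACAT2-3. The cause was not tested.

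Of all genes tested, 456 were called higher and 250 lower. These became 1061 and 666 with the replicate block, 149 and 60 with no filter, and 63 and 20 when shNC-2 and shNC-3 were averaged. With single libraries dropped they ran from 49 to 523 higher and from 14 to 339 lower, the fewest without shNC-3 and the most without shACAT2-1. Without shNC-1, shNC-2 or shACAT2-2 they were 100 and 35, 76 and 25, and 95 and 34. Lower calls moved to 428 with a minimum of 10 fragments in every library, 426 after equal-sum scaling and 581 by limma-voom, where higher calls were 606, 522 and 584. The share of calls that were higher was 64.6%, and 55.1% after equal-sum scaling and 50.1% by limma-voom.

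In the PARP family, PARP1 is in every count of lower calls by its choice; the block gave 1 gene higher (TIPARP) and 2 lower, TNKS being the one besides PARP1, and leaving out 1 library gave 0 to 2 higher, with TNKS2 and TIPARP called without shACAT2-1. In the pathway lists the block gave 2 higher and 2 lower. Lower calls there numbered 2 with at least 10 fragments, 3 by limma-voom, 0 after averaging shNC-2 and shNC-3, and 0 to 1 when single libraries were dropped. Neighbours of PARP1 gave 3 higher and 1 lower with the block, 1 lower after upper-quartile or equal-sum scaling, by limma-voom and within 3 Mb, and 0 to 1 higher with 1 library left out. Apart from the genes and counts given here and in the results, the block changed no other call among the 10 genes. Depth limits PARP9 most, at 24 to 79 fragments.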
